A study of Homo sapiens with 15 samples.

Results

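The protein folding machinery of the endoplasmic reticulum was represented by a list of 37 genes that encode resident chaperones, oxidoreductases, degradation factors, translocation and transport proteins, and the sensors of unfolded protein. The members were chosen by gene symbol from knowledge of the pathway, with earlier results of these data known. Every probe set of the array annotated to one of them alone was taken. Probe sets annotated to a member together with another gene were left out, as happened for HSP90B1 (with MIR3652) and MBTPS2 (with YY2). Of the 37 genes, 34 had such a probe set (63 probe sets of the 22283 on the array), and DNAJB11, KDELR2 and SYVN1 were not analysed here. The series measured RNA of A549 cells, an established human lung adenocarcinoma line that the labels call bronchial, on HG-U133A arrays of Affymetrix, 15 in all, in 5 groups of 3. The groups were untreated cells at the start (control 0 h), cells given the cytokine IL-13 for 4 h, 12 h or 24 h (IL-13 4 h, 12 h and 24 h), and untreated cells after 24 h (control 24 h). The labels give no IL-13 dose and no genetic change, and they do not say whether the arrays a, b and c of a group came from separate cultures, so p-values here measure the spread between arrays, which may be technical. Only at 24 h was there an untreated group of the same age. IL-13 and time in culture therefore cannot be told apart at 4 h and 12 h, and comparisons that use the same control arrays are not independent of each other.

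Secretory and membrane proteins enter the endoplasmic reticulum through the SEC61 channel, fold there with HSPA5 (BiP), HSP90B1 (GRP94), the lectins calnexin and calreticulin and the protein disulfide isomerases, and are returned to the cytosol for degradation when folding fails. Excess unfolded protein is sensed by IRE1 (ERN1), PERK (EIF2AK3) and ATF6. IRE1 splices XBP1 mRNA, ATF6 is cut by the proteases of MBTPS1 and MBTPS2 to release a transcription factor, and both branches are known to induce chaperone and degradation genes, while PERK acts through translation and the factor ATF4. IL-13 is a cytokine of allergic airway disease that drives airway epithelium towards mucus secretion. The arrays measured mRNA only: sensor cleavage, phosphorylation and XBP1 splicing were not analysed here.

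Members of this pathway are known for a promoter element, the ER stress response element (ERSE), read by ATF6 and XBP1. It was searched in RefSeq promoter windows (GRCh38.p14, 250 bases before to 50 after each annotated start, both strands) as the letters CCAAT, 9 bases of any kind and CCACG, together with ERSE-II as ATTGG, 1 base of any kind and CCACG. Of the 37 members, 33 had a window (none for DERL1, KDELR2, PDIA3 and SEC24D). ERSE letters were found in 7 of these members (21.2%), against 25 of all 27305 genes with a window (0.0916%; 27 of 35116 windows, 0.0769%). ERSE-II letters were found in 3 members (9.09%), against 19 genes (0.0696%; 19 windows, 0.0541%). No window held both. The elements were defined in the literature on promoters of such genes, so these shares are a description and not independent of the list. The 250 bases upstream of XBP1 and HERPUD1 are shown because both genes passed the test between IL-13 times below. Lower case is the gene strand from 5′ to 3′, and capitals mark the fixed letters of each element (for a match on the opposite strand, the reverse complement read on the gene strand):
XBP1 chr22:28800570-28800819 (-): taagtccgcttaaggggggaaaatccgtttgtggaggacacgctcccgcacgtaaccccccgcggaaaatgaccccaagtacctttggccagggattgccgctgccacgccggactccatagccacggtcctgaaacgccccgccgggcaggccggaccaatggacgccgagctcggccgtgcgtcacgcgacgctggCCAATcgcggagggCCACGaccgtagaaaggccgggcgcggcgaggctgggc
HERPUD1 chr16:56931892-56932141 (+): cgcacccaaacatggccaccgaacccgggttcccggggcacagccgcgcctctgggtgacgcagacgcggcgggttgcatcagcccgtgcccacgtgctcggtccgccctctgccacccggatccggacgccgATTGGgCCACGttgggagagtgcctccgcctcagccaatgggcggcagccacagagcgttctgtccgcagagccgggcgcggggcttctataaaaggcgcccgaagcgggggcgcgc

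The matches of the other 8 members, with 10 bases on each side and the genome strand of the gene in brackets, are shown because they differ in spacer letters and orientation around the same fixed letters:
HSPA5 chr9:125241381-125241419 (-): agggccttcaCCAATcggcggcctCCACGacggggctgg
HSP90B1 (first match) chr12:103930206-103930244 (+): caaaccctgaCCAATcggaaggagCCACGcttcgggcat
HSP90B1 (second match, opposite strand) chr12:103930311-103930349 (+): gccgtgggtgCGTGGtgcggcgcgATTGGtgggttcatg
CANX chr5:179698768-179698806 (+): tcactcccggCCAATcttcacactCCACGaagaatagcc
PDIA6 chr2:10812843-10812881 (-): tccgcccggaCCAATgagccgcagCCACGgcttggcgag
CALR (opposite strand) chr19:12938374-12938412 (+): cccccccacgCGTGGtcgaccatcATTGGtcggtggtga
SERP1 (opposite strand) chr3:150546700-150546738 (-): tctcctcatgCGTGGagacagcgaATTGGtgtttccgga
HYOU1 (ERSE-II, opposite strand) chr11:119057264-119057294 (-): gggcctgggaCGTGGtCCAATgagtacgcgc
HYOU1 (ERSE-II, opposite strand, second match) chr11:119057370-119057400 (-): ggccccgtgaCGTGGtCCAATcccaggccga
SDF2L1 (ERSE-II, opposite strand) chr22:21642104-21642134 (+): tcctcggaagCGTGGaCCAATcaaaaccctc

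The deposited values were linear signals per probe set. Median signals were 56.7 to 72.4 per array. They averaged 59.1 in control 0 h, 61.6 in IL-13 4 h, 62.4 in IL-13 12 h, 59.3 in IL-13 24 h and 69.5 in control 24 h. Those of IL-13 24 h arrays (56.7, 64.4 and 56.8) all lay below those of control 24 h arrays (69.7, 66.3 and 72.4). Scaling to a common median, an alternative used below, therefore raises IL-13 24 h values relative to control 24 h. KRT8 and KRT18, the keratins of simple epithelium, had group means of at least 4049 and 10539, and of 5 measured epithelial markers 4 passed the filter on dim genes (a mean log2 signal over 6.33). Of 10 measured leukocyte, fibroblast and endothelial markers, CD3E and PECAM1 passed it. PTPRC (10.7 to 13.8), CDH5 and PDGFRA were dim in every group, as were the alveolar type 2 markers SFTPB and SFTPD, while SFTPC, the third one measured, passed the filter (50.5 to 92.4). The 3′/5′ signal ratio of ACTB, a sign of RNA integrity, averaged 1.0 in control 0 h, 1.03 in IL-13 4 h, 1.08 in IL-13 12 h, 1.18 in IL-13 24 h and 1.17 in control 24 h. The same ratio of GAPDH did not rise with time: it averaged 0.88, 0.89, 0.87, 0.87 and 0.90 in the same order. The part of RNA integrity in the differences over time was not tested. In bulk RNA, fewer cells expressing a gene and less RNA per cell cannot be told apart.

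The level of the set as a whole moved little. Over the 34 genes, 1 probe set each, the mean normalised log2 signal was 8.34 ± 0.020 in control 0 h, 8.30 ± 0.026 in IL-13 4 h, 8.37 ± 0.017 in IL-13 12 h, 8.43 ± 0.041 in IL-13 24 h and 8.37 ± 0.016 in control 24 h (mean ± SD, n = 3 arrays each). The arrays of IL-13 24 h lay at 8.47, 8.39 and 8.43 and those of control 24 h at 8.35, 8.38 and 8.38, without overlap, a difference of 0.059. The same mean over all genes differed by -0.00033, but quantile normalization keeps that mean nearly equal between arrays. It is therefore no independent reference. Single members weigh on the set mean: ATF6 stood at 1.14 in this comparison, on 1 of its 2 probe sets. The median difference of the 32 tested members was 0.014. IL-13 4 h arrays (8.32, 8.31 and 8.27) lay below control 0 h arrays (8.32, 8.35 and 8.36), a difference of -0.043. These differences are descriptions of a list and carry no test. Over all 63 probe sets the 24 h difference was -0.0021, with overlapping arrays. With arrays scaled to a common median in place of quantile normalization it was 0.26, where the median of all tested genes also moved to 0.17. Of the 32 members tested below, 31 were then above 0 in this comparison, against 17 with quantile normalization.

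**Figure D1:**
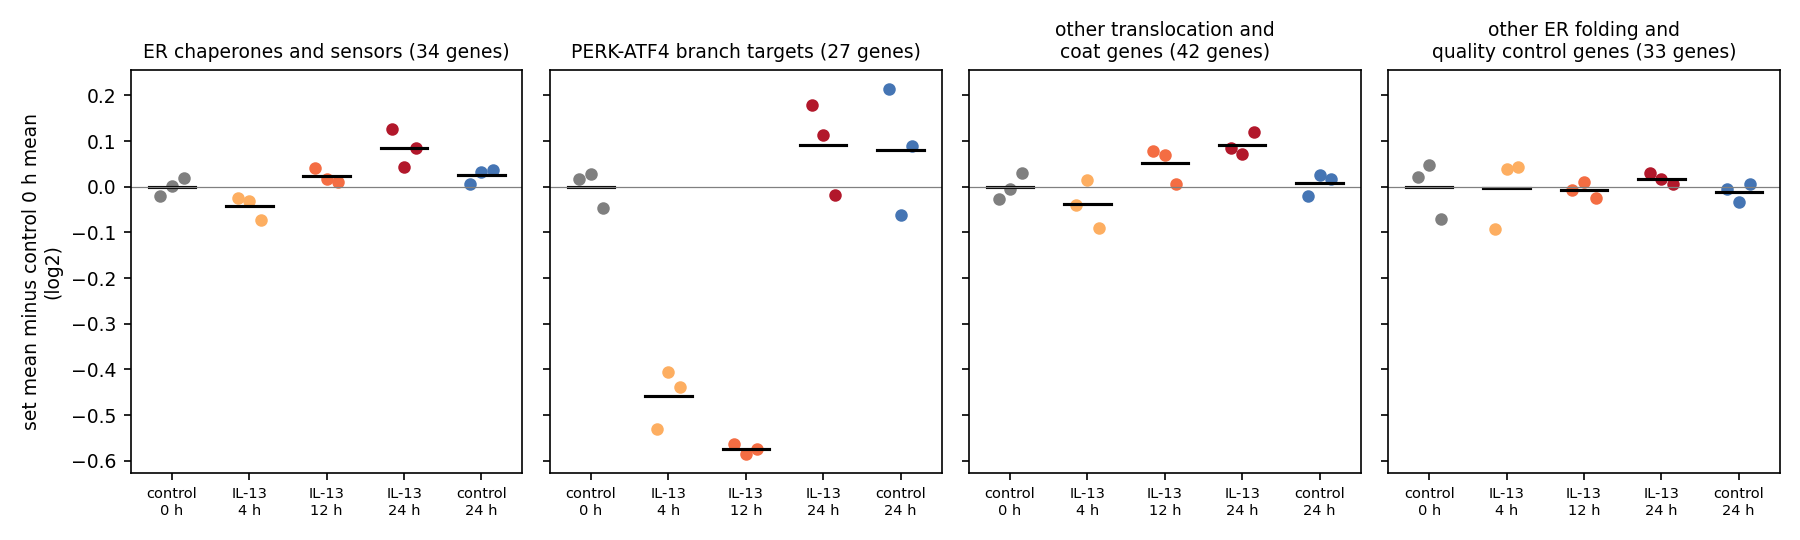
Set mean per array on the vertical axis (normalised log2 signal, minus the control 0 h mean) for the 34 measured members and 3 lists of related genes, by group on the horizontal axis. Points are arrays and bars are group means (n = 3). The member means lie between 8.27 and 8.47 before the subtraction, while the PERK-ATF4 targets lie 0.46 and 0.57 below it after 4 h and 12 h of IL-13.

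Gene by gene, limma was fitted to all 6884 genes bright enough to test, with Benjamini-Hochberg adjustment over all of them and a threshold of 0.05. Among them were 32 members. DNAJC3, the co-chaperone p58IPK (group means 12.8 to 21.9), and SEC24D, a cargo subunit of the COPII coat (27.7 to 42.1), were too dim. After 24 h of IL-13 against control 24 h, 1 of 32 members passed, ATF6, against 7% of all tested genes (482 of 6884). The members' median log2 difference was 0.014, and that of all tested genes was 0.0016. For 31 of the 32 the 95% interval of the difference lay within 2-fold either way, and for 26 within 1.5-fold. ATF6 was the exception for the 2-fold limit. In control 24 h against control 0 h, 3 members passed, SEL1L higher and CALR and ATF6 lower, against 3.62% of all genes. After 4 h of IL-13 against control 0 h limma called 0 members, against 1.22% of all genes, and 3 (ATF6, XBP1 and HERPUD1) were lower at an unadjusted p under 0.05, beside 438 lower of all 6884 genes. After 12 h, MANF and PDIA4 passed, against 4.14%, and after 24 h against the same control 0 h arrays PDIA4 passed, against 6.87%. Between IL-13 times, limma called 0 members and 0% of all genes in IL-13 12 h relative to IL-13 4 h. At an unadjusted p under 0.05, MANF and SSR1 were higher there, beside 330 higher and 367 lower genes among all tested. In IL-13 24 h relative to IL-13 12 h 3 members passed, XBP1 and HERPUD1 higher and MANF lower, against 6.2%. Across the 7 comparisons between 0 and 3 of the 32 members passed.

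**Figure D2:**
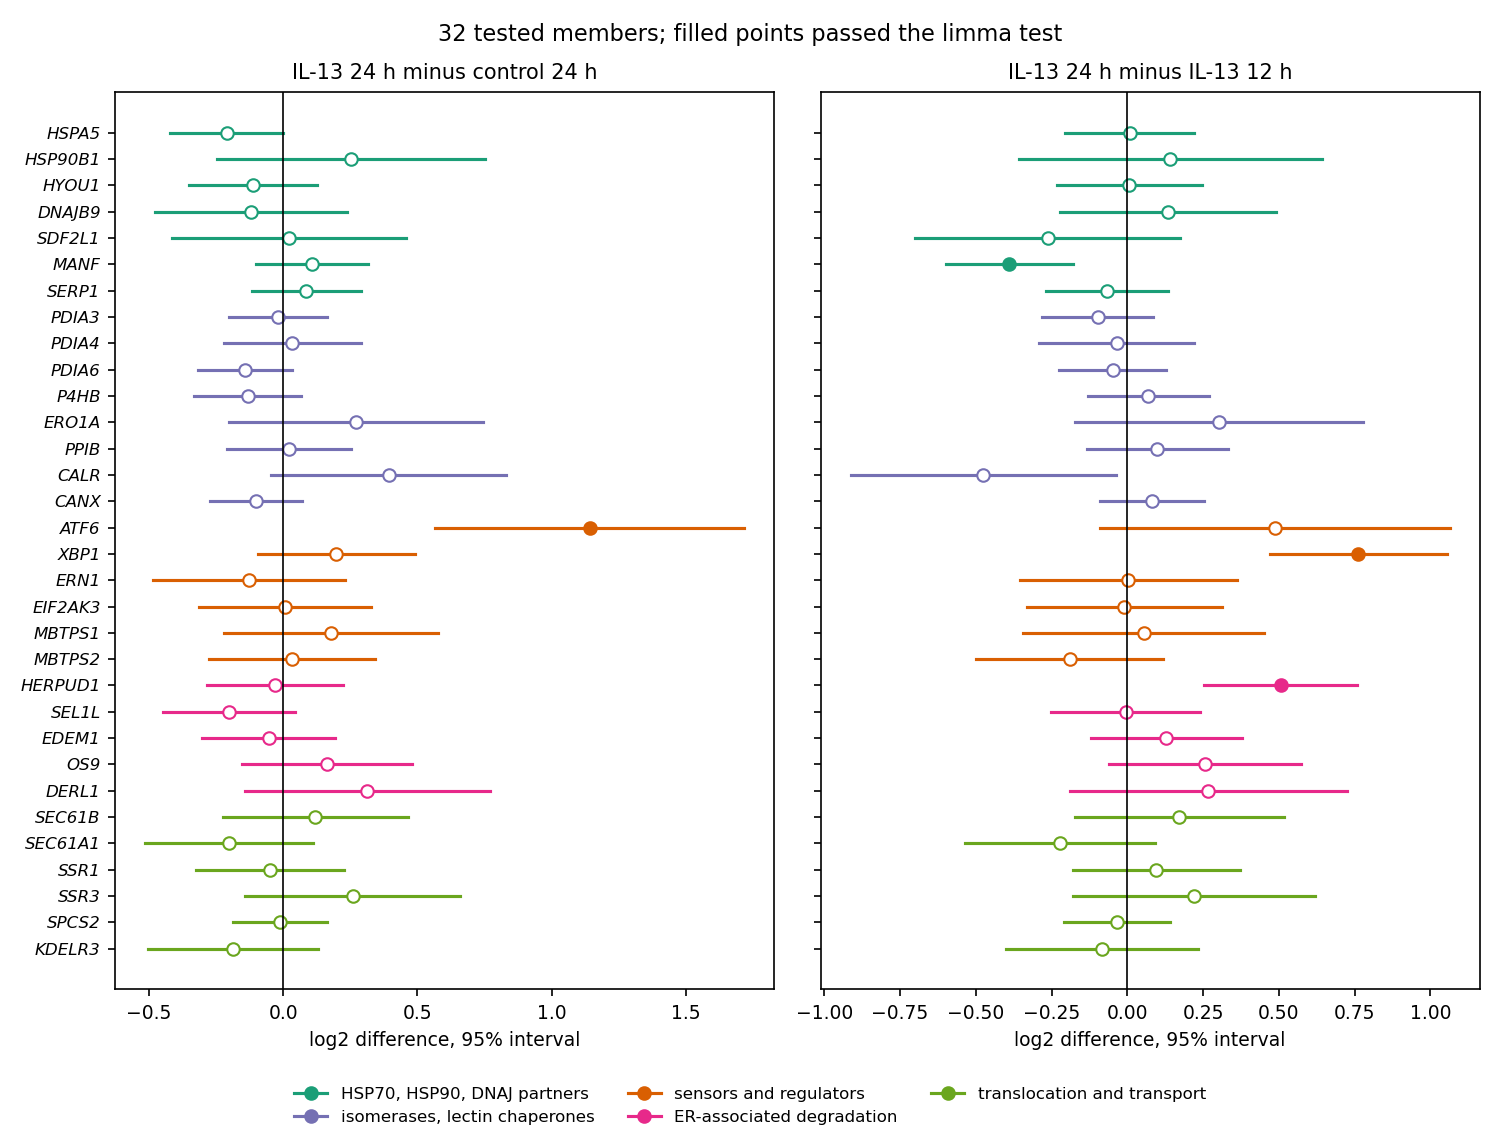
Log2 difference (horizontal axis) of the 32 tested members, 1 row each, with 95% intervals from limma, for IL-13 24 h minus control 24 h (left) and IL-13 24 h minus IL-13 12 h (right). Colours are roles and filled points passed the test: ATF6 at 1.14 on the left, and XBP1 at 0.76, HERPUD1 at 0.51 and MANF at -0.39 on the right.

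Among the sensors and their partners (6 tested), XBP1 passed between IL-13 times and ATF6 between the 24 h groups. XBP1, whose mRNA is the substrate of IRE1 and which encodes a transcription factor, had signals of 239, 291 and 311 in control 0 h arrays, 197, 188 and 162 in IL-13 4 h arrays, 249, 202 and 182 in IL-13 12 h arrays, 364, 388 and 378 in IL-13 24 h arrays, and 358, 260.0 and 353 in control 24 h arrays. Every IL-13 24 h array lay above every array of the other groups, and the IL-13 4 h arrays lay below all arrays of both control groups. XBP1 rose by 0.76 ± 0.14 (log2 ± SE, 1.70-fold) at IL-13 24 h relative to IL-13 12 h (limma, adjusted p = 0.00284), and this call held in all 17 other settings tried (0.66 to 0.88). Relative to control 0 h, XBP1 stood at -0.53 ± 0.14 after 4 h (adjusted p = 0.0792), -0.35 ± 0.14 after 12 h (adjusted p = 0.187) and 0.41 ± 0.14 after 24 h (adjusted p = 0.0904). The 4 h value passed with the signals as deposited (-0.57, adjusted p = 0.0435) and with median scaling (-0.62, adjusted p = 0.0381). Against control 24 h arrays, the normalised values overlapped and the difference of 0.20 ± 0.14 did not pass (adjusted p = 0.407, 95% interval -0.094 to 0.49). With median scaling it was 0.44 and passed (adjusted p = 0.041), beside the shift of all genes given above.

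**Figure D3:**
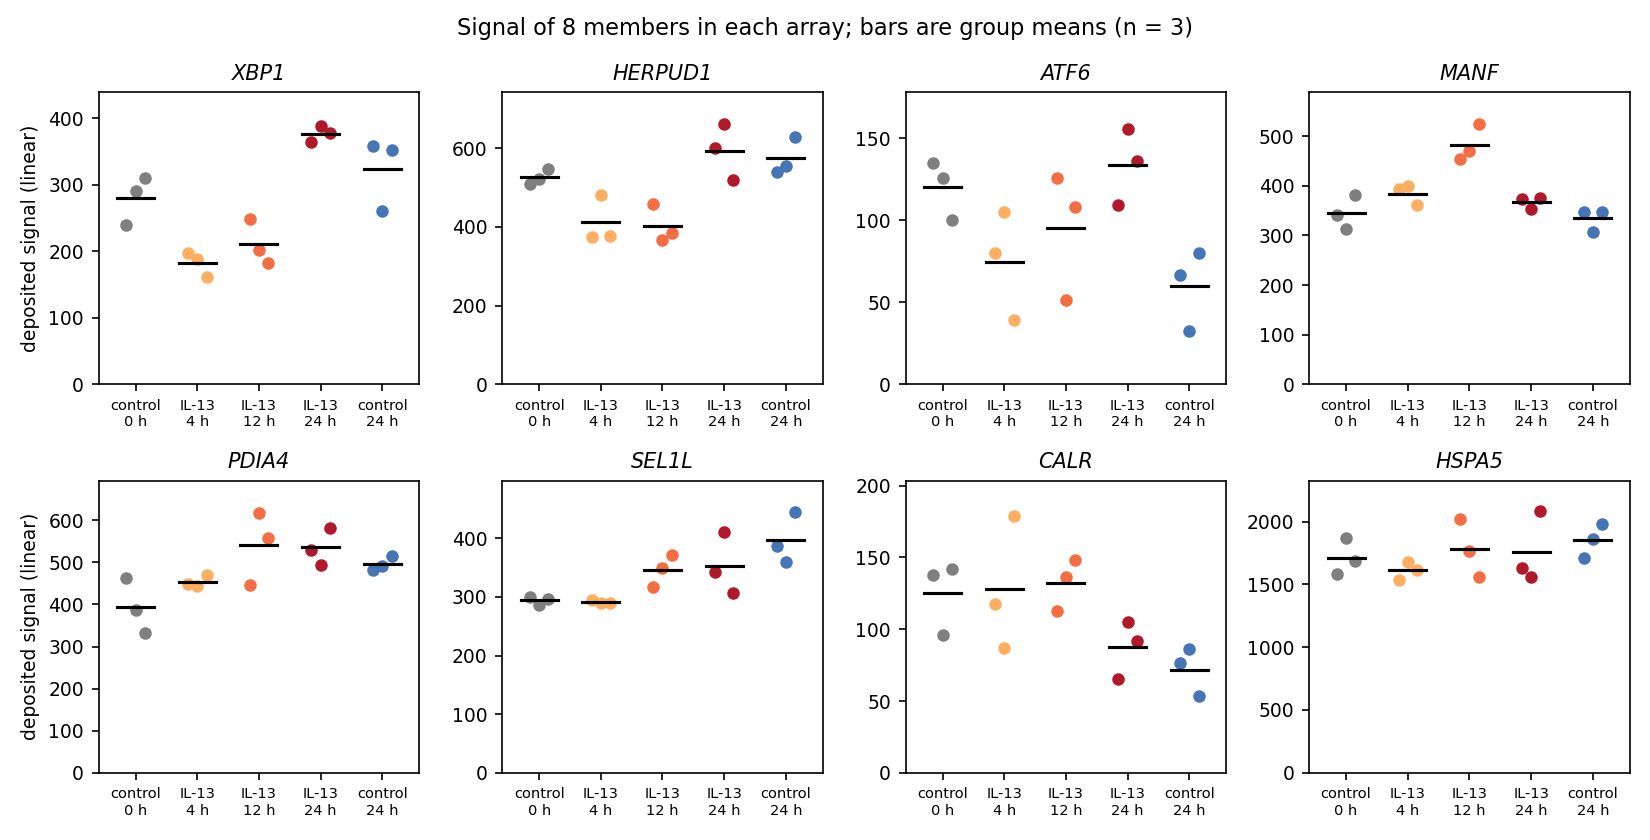
Deposited linear signal (vertical axis, from 0) of 8 members in each of the 15 arrays, by group. Points are arrays and bars are group means (n = 3). XBP1 and HERPUD1 are low after 4 h and 12 h of IL-13 and high at 24 h in treated and untreated cells, MANF is highest at IL-13 12 h, and ATF6 is lowest in control 24 h.

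ATF6, the membrane-bound sensor that becomes a transcription factor, had signals of 135, 126 and 100.2 in control 0 h arrays, 79.8, 105 and 39.4 in IL-13 4 h arrays, 125, 51.5 and 108 in IL-13 12 h arrays, 109, 156 and 136 in IL-13 24 h arrays, and 66.8, 32.5 and 79.9 in control 24 h arrays. The IL-13 24 h arrays lay above all control 24 h arrays and overlapped the control 0 h arrays, and IL-13 4 h and 12 h arrays spread over both. ATF6 rose by 1.14 ± 0.27 (2.21-fold) at IL-13 24 h relative to control 24 h (limma, adjusted p = 0.0191). Relative to control 0 h arrays, the IL-13 24 h value was 0.13 ± 0.27 (adjusted p = 0.849) and control 24 h fell by 1.01 ± 0.27 (adjusted p = 0.0486). The call between the 24 h groups was lost when array b of control 24 h was left out, and when array b or array c of IL-13 24 h was (0.88 to 1.12, adjusted p 0.0537 to 0.0718), and that between the controls without any 1 of the 6 arrays (-1.18 to -0.75, adjusted p 0.0648 to 0.151). A second, dimmer ATF6 probe set had signals of 30.2 to 67.6 over the 15 arrays, with the IL-13 24 h arrays overlapping those of control 24 h and lying below those of control 0 h and IL-13 12 h. It stood at -0.13 between the 24 h groups and -0.13 between the controls. The rise was measured by 1 of the 2 probe sets.

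The other sensors gave no call in any of the 7 comparisons. ERN1, the kinase and RNase IRE1, had signals of 107, 86.4 and 73.8 in control 0 h arrays, 121, 75.1 and 102 in IL-13 4 h arrays, 83.7, 89.1 and 101 in IL-13 12 h arrays, 75.9, 106 and 83.2 in IL-13 24 h arrays, and 98.1, 88.2 and 144 in control 24 h arrays. All groups overlapped, with the highest value in control 24 h array c, and the difference was -0.13 ± 0.17 between IL-13 24 h and control 24 h (adjusted p = 0.683). EIF2AK3, the kinase PERK, had signals of 53.3, 72.1 and 75.7 in control 0 h arrays, 73.8, 79.0 and 63.8 in IL-13 4 h arrays, 87.0, 85.9 and 82.0 in IL-13 12 h arrays, 77.1, 77.3 and 89.4 in IL-13 24 h arrays, and 76.6, 93.2 and 104 in control 24 h arrays. In deposited signal the arrays of IL-13 12 h, IL-13 24 h and control 24 h all lay above the control 0 h arrays. After normalization only those of IL-13 12 h did. The difference of 0.23 ± 0.15 between IL-13 12 h and control 0 h did not pass in limma (adjusted p = 0.494). IL-13 24 h stood at 0.0067 ± 0.15 relative to control 24 h. MBTPS1 and MBTPS2, the Golgi proteases that cut ATF6, had group means of 293 to 359 and 139 to 163 and differences of 0.18 and 0.034 between IL-13 24 h and control 24 h.

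Among the HSP70, HSP90 and DNAJ chaperones and their partners (7 tested), HSPA5, the central chaperone that also holds the sensors inactive, had signals of 1584, 1869 and 1686 in control 0 h arrays, 1538, 1679 and 1616 in IL-13 4 h arrays, 2021, 1766 and 1558 in IL-13 12 h arrays, 1628, 1558 and 2088 in IL-13 24 h arrays, and 1712, 1858 and 1983 in control 24 h arrays. In deposited signal the groups overlapped, except that IL-13 4 h lay below control 24 h. IL-13 24 h array c had the highest signal of the 15, while arrays a and b of that group were among the lower ones. After normalization the control 24 h arrays (10.94, 10.95 and 11.07) lay above all control 0 h arrays (10.66, 10.82 and 10.74) and all IL-13 12 h arrays. Control 24 h array c was then the highest, and IL-13 4 h lay below control 0 h. The rise of 0.24 in control 24 h relative to control 0 h did not pass in limma. HSPA5 stood at -0.21 ± 0.10 in IL-13 24 h relative to control 24 h (adjusted p = 0.211). Without IL-13 24 h array c the difference was -0.35 and passed (adjusted p = 0.0471), and with median scaling it was 0.14, so its direction turned with the scaling. HSP90B1, the HSP90 of the compartment, had signals of 243, 257 and 175 in control 0 h arrays, 207, 204 and 136 in IL-13 4 h arrays, 315, 281 and 184 in IL-13 12 h arrays, 307, 195 and 395 in IL-13 24 h arrays, and 292, 262 and 174 in control 24 h arrays, measured on a probe set that may cross-hybridise. Again IL-13 24 h array c was the highest of all and the groups overlapped (0.25 ± 0.24 in IL-13 24 h relative to control 24 h, adjusted p = 0.553). Its second probe set, of the same kind, stood at -0.26 in that comparison and 0.74 in IL-13 12 h relative to control 0 h, where the first stood at 0.19. The array also holds HSP90B1 probe sets annotated together with MIR3652, which were not analysed here.

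MANF, a small protein that binds HSPA5 and is known to be induced by stress of the compartment, had signals of 342, 312 and 381 in control 0 h arrays, 393, 399 and 361 in IL-13 4 h arrays, 455, 470.2 and 525 in IL-13 12 h arrays, 373, 353 and 376 in IL-13 24 h arrays, and 348, 308 and 348 in control 24 h arrays. Every IL-13 12 h array lay above every array of the other groups, and the control 0 h arrays overlapped those of every remaining group. MANF rose by 0.48 ± 0.10 (1.39-fold) in IL-13 12 h relative to control 0 h (limma, adjusted p = 0.00989) and fell by 0.39 ± 0.10 in IL-13 24 h relative to IL-13 12 h (adjusted p = 0.0259), 2 values that share the IL-13 12 h arrays. The first call was lost when array b of control 0 h or array c of IL-13 12 h was left out (0.41 in both cases, adjusted p = 0.066 and 0.06), and the second when array c of IL-13 12 h or any array of IL-13 24 h was (-0.40 to -0.32, adjusted p 0.0641 to 0.119). In IL-13 24 h relative to control 24 h MANF stood at 0.11 ± 0.10 (adjusted p = 0.542), although the deposited signals did not overlap, and with median scaling at 0.35 (adjusted p = 0.0413). DNAJB9, a co-chaperone of HSPA5, had signals of 299, 271 and 195 in control 0 h arrays, 234, 278 and 199 in IL-13 4 h arrays, 219, 222 and 279 in IL-13 12 h arrays, 242, 330.4 and 240.2 in IL-13 24 h arrays, and 263, 272 and 349 in control 24 h arrays, with every group overlapping (-0.12 ± 0.17 in IL-13 24 h relative to control 24 h, adjusted p = 0.705). HYOU1, an exchange factor for HSPA5, averaged 405 ± 40.7 in IL-13 24 h and 427 ± 27.3 in control 24 h. SDF2L1, a partner of DNAJ proteins, averaged 147 ± 31.6 in IL-13 24 h and 153 ± 34.8 in control 24 h (SD, n = 3 each). After normalization SDF2L1 stood at 0.023 in this comparison, the other way. SERP1, a small protein of the translocon, averaged 1122 ± 58.1 in IL-13 24 h and 972 ± 71.8 in control 24 h. None of these passed in any of the 7 comparisons. With median scaling SERP1 passed in IL-13 24 h relative to control 24 h (0.43, limma, adjusted p = 0.0424), where the median of all tested genes moved to 0.17. With quantile normalization the SERP1 probe sets went in both directions in that comparison.

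Of the 8 tested isomerases and lectin chaperones, PDIA4 and CALR passed in a comparison. PDIA4 (ERp72), a protein disulfide isomerase, had signals of 463, 386 and 333 in control 0 h arrays, 449, 443 and 469 in IL-13 4 h arrays, 446, 617 and 559 in IL-13 12 h arrays, 529.8, 494 and 583 in IL-13 24 h arrays, and 482, 492 and 515 in control 24 h arrays. Control 0 h arrays b and c were the lowest of the 15, and the 24 h groups lay above all control 0 h arrays. PDIA4 rose by 0.46 ± 0.12 in IL-13 12 h (limma, adjusted p = 0.0398) and by 0.42 ± 0.12 in IL-13 24 h (adjusted p = 0.0447), both relative to control 0 h. Untreated cells moved likewise, 0.39 ± 0.12 in control 24 h relative to control 0 h (adjusted p = 0.084), which passed without control 0 h array a (0.51, adjusted p = 0.0436). IL-13 24 h stood at 0.033 ± 0.12 relative to control 24 h. The 12 h call was lost when array b or c of either group was left out (0.35 to 0.45, adjusted p 0.121 to 0.185). The 24 h call was lost when array b or c of control 0 h or any array of IL-13 24 h was left out (0.31 to 0.45, adjusted p 0.0717 to 0.206). A second PDIA4 probe set stood at 0.18 and 0.0075 in these 2 comparisons.

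CALR, the soluble lectin chaperone calreticulin, had signals of 138, 96.1 and 142 in control 0 h arrays, 118, 87.2 and 179 in IL-13 4 h arrays, 113, 136 and 148 in IL-13 12 h arrays, 65.2, 105 and 92.1 in IL-13 24 h arrays, and 76.3, 86.0 and 53.1 in control 24 h arrays on the probe set used. The control 24 h arrays lay below all control 0 h arrays and overlapped the IL-13 24 h arrays. CALR fell by 0.80 ± 0.21 in control 24 h relative to control 0 h (limma, adjusted p = 0.039). The call was lost without any control 0 h array or without control 24 h array a or c (-0.93 to -0.62, adjusted p 0.0599 to 0.163). Both brighter CALR probe sets, of a kind that may cross-hybridise, stood at -0.081 and 0.019 there. In IL-13 24 h relative to control 24 h, the probe set used stood at 0.39 ± 0.21 (adjusted p = 0.265) and the brighter sets at -0.36 and -0.25, the opposite way. Of the remaining 6, PDIA3 (ERp57) averaged 692 ± 46.5 in IL-13 24 h and 662 ± 66.0 in control 24 h, and P4HB, the classical disulfide isomerase, 2271 ± 189.5 in IL-13 24 h and 2390.1 ± 254 in control 24 h. PDIA6 averaged 964 ± 119 in IL-13 24 h and 969 ± 83.6 in control 24 h, and calnexin (CANX) 1996 ± 53.3 in IL-13 24 h and 1989.7 ± 70.9 in control 24 h. These are deposited signals. In the normalised values that were tested, these 4 were the members of this role below 0 between the 24 h groups. PDIA6 was the lowest of the 8, at -0.14, and none of the 4 passed. PPIB, a proline isomerase, stood at 0.28 ± 0.11 in IL-13 24 h relative to control 0 h (adjusted p = 0.149), and its second probe set at 0.48. With the mean of its probe sets PPIB passed in that comparison (0.38, adjusted p = 0.0396), beside 0.26 in control 24 h relative to the same control 0 h arrays, and CALR passed under the same setting and comparison, lower (-0.36, adjusted p = 0.0382). ERO1A, the oxidase that recharges the isomerases, was dim (42.2 to 106 over the 15 arrays) and gave the wide interval of -0.20 to 0.75 between the 24 h groups.

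Among the genes of ER-associated degradation (5 tested), HERPUD1, a membrane protein of the retrotranslocation complex, had signals of 510.0, 522 and 547 in control 0 h arrays, 375, 482 and 378 in IL-13 4 h arrays, 458, 367 and 384 in IL-13 12 h arrays, 602, 661 and 519.6 in IL-13 24 h arrays, and 539, 556 and 629.8 in control 24 h arrays. All IL-13 4 h and 12 h arrays lay below all arrays of the other 3 groups, which overlapped in deposited signal. After normalization the control 24 h arrays (9.18, 9.19 and 9.42) lay above the control 0 h arrays (9.03, 9.06 and 9.12), a difference that did not pass. HERPUD1 rose by 0.51 ± 0.12 (1.42-fold) in IL-13 24 h relative to IL-13 12 h (limma, adjusted p = 0.0177). The call was lost when array b or c of IL-13 12 h, or array a or b of IL-13 24 h, was left out (0.41 to 0.50, adjusted p 0.0542 to 0.0741). Relative to control 0 h, it stood at -0.32 ± 0.12 after 4 h (adjusted p = 0.285) and -0.34 ± 0.12 after 12 h (adjusted p = 0.131), and neither passed. The 24 h groups differed by -0.032 ± 0.12 (adjusted p = 0.903, 95% interval -0.28 to 0.22).

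SEL1L, the adaptor of the HRD1 ubiquitin ligase, had signals of 300.3, 286 and 296 in control 0 h arrays, 295, 289 and 289 in IL-13 4 h arrays, 318, 350.0 and 371 in IL-13 12 h arrays, 343, 410.4 and 307 in IL-13 24 h arrays, and 387, 359.5 and 445 in control 24 h arrays. Control 0 h and IL-13 4 h arrays stayed close together, and the arrays of the later groups lay above them. SEL1L rose by 0.44 ± 0.12 in control 24 h relative to control 0 h (limma, adjusted p = 0.045), and its 3 other probe sets stood at 0.069, 0.69 and 0.29. The call was lost without any control 0 h array or without control 24 h array a or c (0.34 to 0.46, adjusted p 0.0801 to 0.184), and with median scaling (0.18, adjusted p = 0.262). In IL-13 24 h relative to control 24 h it stood at -0.20 ± 0.12 (adjusted p = 0.302). EDEM1, which marks glycoproteins for degradation, averaged 139 ± 9.69 in IL-13 24 h and 154 ± 10.6 in control 24 h. OS9, a lectin of the same route, averaged 146 ± 8.35 in IL-13 24 h and 139.9 ± 29.8 in control 24 h. DERL1, a membrane protein of the retrotranslocation complex, averaged 467 ± 137 in IL-13 24 h and 359 ± 63.5 in control 24 h, with a second probe set at -0.093 where the first stood at 0.31. These 3 did not pass in any of the 7 comparisons.

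Of the translocation, signal processing and transport genes (6 tested), 0 passed in limma in any of the 7 comparisons, and at an unadjusted p under 0.05 there was 1, SSR1, in IL-13 12 h relative to IL-13 4 h (0.34 ± 0.13, adjusted p = 0.344). The differences between IL-13 24 h and control 24 h were -0.20 for SEC61A1 and 0.12 for SEC61B, subunits of the translocation channel. They were -0.049 for SSR1 and 0.26 for SSR3, of the translocon-associated TRAP complex. SPCS2, a subunit of signal peptidase, stood at -0.013, and KDELR3, a receptor that returns chaperones from the Golgi, at -0.19. Each of these 6 intervals spanned 0. In control 24 h relative to control 0 h all 6 values were positive (0.011 to 0.27), beside 3407 of all 6884 tested genes. KDELR3, SPCS2 and SSR1 also had probe sets on the other side of 0 there. With median scaling the median of all tested genes in this comparison moved to -0.18 and 26 of the 32 members were negative.

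Of 18 members with several probe sets, 4 had all of them on the same side of 0 between IL-13 24 h and control 24 h, and 14 had sets on both sides. Between control 24 h and control 0 h the numbers were 9 and 9. In both comparisons the widest gaps between probe sets of 1 gene were those of ATF6 and CALR. XBP1, HERPUD1 and MANF each had a single probe set, so no second probe set bears on their values.

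**Figure D4:**
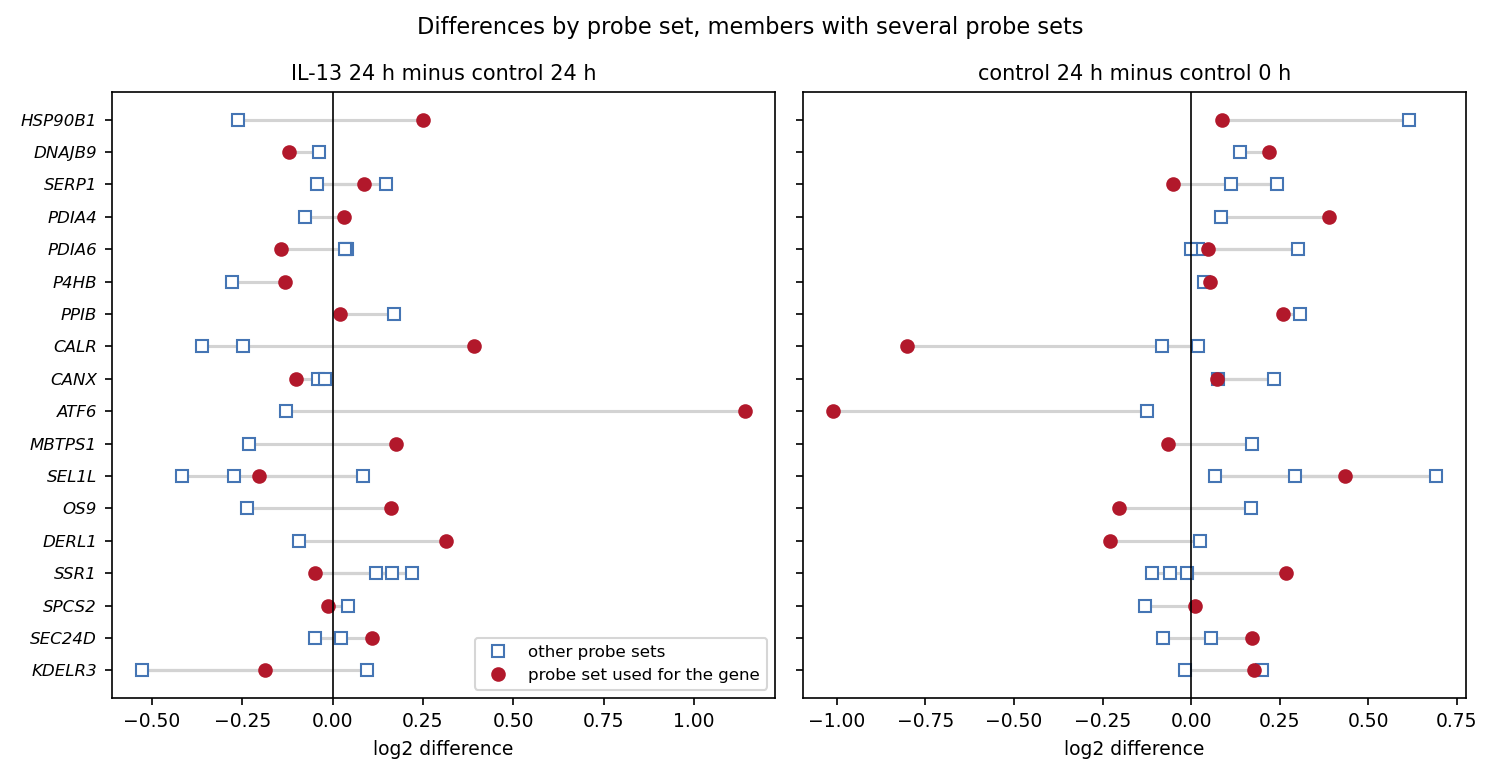
Log2 difference (horizontal axis) of every probe set of the 18 members with several, for IL-13 24 h minus control 24 h (left) and control 24 h minus control 0 h (right). Filled circles are the probe sets used for the gene and squares the others; the ATF6 circle lies at 1.14 on the left and -1.01 on the right, with its square at -0.13 and -0.13.

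The 10 members with an ERSE or ERSE-II in their promoter window, all of them tested, were counted apart. Between IL-13 24 h and control 24 h, 0 of 10 passed in limma, against 7% of all tested genes, and 0 had an unadjusted p under 0.05, against 878 higher and 757 lower of the 6884. They had a median of -0.0047 and 5 of 10 above 0, against a median of 0.014 for the 20 tested members whose window held no match. Between IL-13 24 h and IL-13 12 h, 2 of 10 passed, XBP1 (ERSE) and HERPUD1 (ERSE-II), both higher, against 6.2% of all tested genes. The other 8 lay between -0.48 (CALR) and 0.14 (HSP90B1), with HSPA5 at 0.0078 and HYOU1 at 0.0065. The median of the 10 was 0.0071, against 0.062 for the 20 without a match. A link between element and change was not tested. MANF, which fell in that comparison, and ATF6 held no match of these letters in their windows.

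Genes outside the list were counted from 3 further lists, chosen like the members with earlier results of these data known. The list of PERK-ATF4 branch targets (27 of 29 tested) had the largest counts at these times. PERK activity was not measured, and the cause of the changes in this list was not tested. It had 5 lower genes after 4 h of IL-13 relative to control 0 h, against 0.872% of all tested genes lower. After 12 h it had 17 lower genes, against 2.59%. The list had 19 higher genes in IL-13 24 h relative to IL-13 12 h, against 4.14%. The median log2 differences were -0.39, -0.50 and 0.65, beside -0.027, 0.049 and 0.031 for the members. After 4 h the smallest p-values were those of TRIB3, a pseudokinase induced by ATF4 (-1.83 ± 0.15, adjusted p = 2.6e-06), the folate enzyme MTHFD2 (-0.66 ± 0.091, adjusted p = 0.000818), CHAC1, which degrades glutathione (-1.44 ± 0.21, adjusted p = 0.00103), and the transcription factor CEBPG (-0.75 ± 0.11, adjusted p = 0.00103). The set mean of this list was 9.32 in control 0 h, 8.86 in IL-13 4 h, 8.74 in IL-13 12 h, 9.41 in IL-13 24 h and 9.40 in control 24 h, low at 4 h and 12 h like the signals of XBP1 and HERPUD1. In IL-13 24 h relative to control 24 h the list had 0 higher genes and 1 lower, the amino acid transporter subunit SLC3A2 (-0.46 ± 0.12, adjusted p = 0.0252). In control 24 h relative to control 0 h, DDIT4, an inhibitor of mTORC1 (0.88 ± 0.13, adjusted p = 0.00113), and the cystine transporter SLC7A11 (0.66 ± 0.12, adjusted p = 0.00819) were higher. Of 30 tested genes of other folding and quality control factors, 1 passed in each of these 2 comparisons, CREB3L2, a membrane-bound transcription factor related to ATF6, at -0.35 ± 0.10 in IL-13 24 h relative to control 24 h (adjusted p = 0.0412) and 0.42 ± 0.10 in control 24 h relative to control 0 h (adjusted p = 0.0251). Of 41 tested translocation and coat genes, SEC24C, a cargo subunit of the COPII coat, fell by 0.50 ± 0.13 in IL-13 24 h relative to control 24 h (adjusted p = 0.0246). In that comparison each of the 3 lists thus had 1 lower gene and 0 higher ones in limma, and at an unadjusted p under 0.05 the PERK-ATF4 list had 2 higher and 4 lower genes, the folding list 1 and 2, and the coat list 6 and 2, beside 878 higher and 757 lower of all 6884 tested.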

How the data were processed

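A549 RNA was hybridised to 15 HG-U133A arrays, 3 per group. The deposited intensity values are linear signals per probe set. The authors' summary method and scaling are not stated in the labels, and arrays carry no counts, so the number of arrays limits the precision. Signals plus 20 were log2-transformed and quantile normalized. Gene names came from GEO's platform annotation: 19065 probe sets had 1 symbol, 1043 had several and 2107 had none (68 control probe sets aside). Each gene took its brightest probe set, with sets marked x, which may cross-hybridise, only where it had no other. A gene was tested where its mean exceeded 6.33, the median of all non-control probe sets (6884 of 11963).

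limma 3.58.1 (R 4.3.3) fitted all 15 arrays with a mean per group and a variance trend, with Benjamini-Hochberg adjustment over all tested genes in each of 7 comparisons. The fit was tested on simulated data. Same-letter arrays did not deviate together (r -0.22 to 0.11 over 30 pairs), so letters were not treated as pairing. Values in every array are given for each member past the threshold in any comparison and for HSPA5, HSP90B1, ATF6, XBP1, ERN1, EIF2AK3, DNAJB9 and HERPUD1. Of the other lists, up to 4 genes with the smallest p past the threshold are named, in 3 comparisons. Members and lists were chosen with earlier results of these data known. Alternatives changed the pseudocount (1 or 64), scaling, filter, probe sets, variance model, samples in the fit and block.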

Additional observations from a re-analysis of the deposited data

How the results depend on the processing

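Of the single-member values under the alternatives, 3481 stayed the same. Called ones among them kept their call and direction, and uncalled ones lay within 1 SE of their value, where small ones could change sign. A further 174 uncalled values moved by 1 SE or more but stayed uncalled. Of the rest, 73 calls were lost, 9 were gained and 1 called value reversed. The reversal was CALR in control 24 h relative to control 0 h, at 0.019 with the brightest probe set of any kind, an alternative chosen after seeing the data. XBP1 between IL-13 24 h and IL-13 12 h was the call lost in none of the settings run.

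The counts here and in the next 2 paragraphs describe the settings and are not results about the members. Shares over all tested genes per setting are not given here. Calls among all genes can change with the setting too, and median scaling moved their median to 0.17 between the 24 h groups. The number of members called in IL-13 24 h relative to control 24 h was 4 with median scaling, and 0 with no filter, with the filter at the 75th percentile or with the mean of all probe sets of a gene. In control 24 h relative to control 0 h it was 1 with values scaled as deposited, with the 75th percentile filter or with only the compared groups in the fit, and 0 with no filter, the mean of probe sets or no variance trend. In IL-13 4 h relative to control 0 h it was 1 with values scaled as deposited or median scaling. In IL-13 12 h relative to control 0 h it was 0 with median scaling and 1 with no filter, the mean of probe sets, only the compared groups or no variance trend. In IL-13 24 h relative to control 0 h it was 2 with the mean of probe sets and 0 with median scaling, no filter, only the compared groups or no variance trend.

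The array letters were not shown to pair arrays. With the letter as a block (replicate block), 0 members passed in control 24 h relative to control 0 h, 1 in IL-13 12 h and 0 in IL-13 24 h, both relative to control 0 h, and the other 4 counts stayed within 1.5 times.

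With 1 array left out at a time, the count ranged from 0 to 1 in IL-13 24 h relative to control 24 h and in IL-13 24 h relative to control 0 h, from 0 to 2 in control 24 h and in IL-13 12 h relative to control 0 h, and from 1 to 3 between IL-13 24 h and 12 h, and it was 0 throughout in the other 2 comparisons.

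The set mean moved by more than the spread between arrays in these cases. With median scaling the differences were 0.26 in IL-13 24 h relative to control 24 h, -0.18 in control 24 h, -0.097 in IL-13 4 h and -0.043 in IL-13 12 h, each relative to control 0 h, and 0.12 between IL-13 24 h and 12 h. Over all probe sets of the members they were -0.0021, 0.065, -0.0088, 0.071 and -0.0073 in the same order. With the median over members they were 0.091 in IL-13 24 h relative to control 24 h, 0.10 in control 24 h, 0.089 in IL-13 12 h and 0.19 in IL-13 24 h, each relative to control 0 h, 0.13 between IL-13 12 h and 4 h and 0.10 between IL-13 24 h and 12 h. With the brightest probe set of any kind, control 24 h relative to control 0 h stood at 0.060. Leaving out 1 array gave 0.039 to 0.080 in IL-13 24 h relative to control 24 h, 0.015 to 0.035 in control 24 h, -0.053 to -0.028 in IL-13 4 h, 0.013 to 0.033 in IL-13 12 h and 0.064 to 0.10 in IL-13 24 h, each relative to control 0 h, 0.051 to 0.075 between IL-13 12 h and 4 h, and 0.041 to 0.082 between IL-13 24 h and 12 h. These fits kept the normalization, probe set choice and filter of all arrays. The causes were not tested. The number of arrays, 3 a group, limits the precision to the intervals given, and dim genes were not tested.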
